A study of Homo sapiens with 9 samples.

Results

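The protein-coding genes of the cytosolic ribosome were followed through 6 lists of called peaks, 4 for the transcription factor RBPJ and 2 for open chromatin. Members were taken by symbol, as RPL or RPS followed by a number with an optional letter or L suffix, together with RPLP0, RPLP1, RPLP2 and RPSA and without the RPS6K kinase genes. This gave 87 of 20037 protein-coding genes on chromosomes 1 to 22, X and Y, with 46 genes of the large subunit, 31 of the small subunit and 10 paralogues. A gene counted as having a peak when a peak overlapped 1 kb on each side of either annotated end of the gene (RefSeq, hg38), which is called a gene-end peak here. No measured value entered the choice of the genes.

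The labels describe 9 libraries with 1 library in each group, and 6 of them came with a peak list analysed here. The RBPJ lists come from CUT&Tag, in which an antibody to RBPJ guides a transposase to DNA near the bound protein, in HEK293T, a human cell line of embryonic kidney origin. The FBXO42 wild-type and the FBXO42 KO lists form the first comparison. The lists titled RBPJ and RBPJK175R form the second, and both of these libraries carry the genotype FBXO42 KO. The sources used here do not say by what means either form entered the cells, nor whether a line was 1 clone. The ATAC libraries, in which free transposase marks open chromatin, are labelled as Jurkat, a human T cell leukaemia line, wild type or FBXO42 KO. Knockouts were made with CRISPR delivered by lentivirus, per the labels. Values from the 3 IgG control libraries were not analysed here. The design text gives the DNA binding of RBPJ and the state of chromatin as what was examined.

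The cytosolic ribosome is built from ribosomal RNA and a fixed set of proteins, each encoded in human cells mostly by a single expressed gene. The large subunit forms peptide bonds and holds the exit tunnel of the new chain, and the small subunit binds and decodes messenger RNA. Most of these genes are transcribed at a high level in every growing cell from short promoters, and their messages start with a C followed by a run of pyrimidines, the 5′ terminal oligopyrimidine (TOP) tract, through which growth signals set their translation. RBPJ is the DNA-binding factor of the Notch pathway, and the core of its motif is TGGGAA.

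The measure used was the number of reads at the summit of a peak, which was recovered from the authors' fold and p-value for every peak of every list. The lists held 42656, 36877, 19913 and 22691 peaks for RBPJ in wild type, RBPJ in KO, titled RBPJ and titled RBPJK175R, and 31886 and 20093 for ATAC in wild type and KO. Depth was read from the lowest background of each list. It was 92.1% of wild type in the KO RBPJ list, 53.4% of titled RBPJ in the RBPJK175R list and 44.2% of wild type in the KO ATAC list. All ratios below were divided by these depths, and their intervals are exact binomial 95% intervals that cover counting error only. With 1 library a group there was no replicate spread and no test between groups. The cell type labels were checked against marker genes. Of 15 T cell markers only ZAP70 and RAG1 had a gene-end peak in the wild-type ATAC list and only RAG1 in the KO one, fewer than the 4 of 15 in the wild-type RBPJ list. The defining genes CD3D, CD3E, CD3G, CD2 and LCK had none in either ATAC list. Of 12 kidney and epithelial markers 5 had one in each ATAC list, with SIX2 and CDH2 in both, and 6 had one in the wild-type RBPJ list. T cell markers with a peak were thus few for lists labelled Jurkat. Kidney and epithelial markers stood at 41.7% in each ATAC list, not above the 56.3% (wild type) and 42.7% (KO) of all genes. Peaks were also called at LCK, CD7 and PTCRA in the wild-type HEK293T RBPJ list, so these counts do not settle the cell type. The ATAC lists are called the ATAC lists labelled Jurkat from here on. Which cells they came from was not tested.

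The promoter table of RefSeq (GRCh38.p14; 250 bases before to 50 after the annotated start) held 70 of the 87 genes and 15843 of all genes. 8 of these promoters are shown over the 160 bases before the start, 5′ to 3′ on the strand of the gene. RPL39 and RPS25 had the highest summits with an annotated start, RPLP2 differed between the titled libraries, RPL3 holds the letters of a TATA box, RPS19 and RPS6 share a palindrome, and RPL37A and RPS23 had ATAC peaks and no RBPJ peak. Capitals mark TGGGAA or its reverse complement TTCCCA in RPL39, RPS25 and RPLP2, CCGGAAGT (an ETS motif) in RPS25 and RPS6, a palindrome of 10 bases in RPS19 and RPS6 (the first capitals of RPS19, the last of RPS6), and TTTATA, the reverse complement of TATAAA, in RPL3. The stretches lie at chrX:119791631-119791790 (minus strand), chr11:119018344-119018503 (minus), chr11:809807-809966 (plus), chr22:39319624-39319783 (minus), chr19:41860095-41860254 (plus), chr9:19380237-19380396 (minus), chr2:216498684-216498843 (plus) and chr5:82278355-82278514 (minus).
RPL39: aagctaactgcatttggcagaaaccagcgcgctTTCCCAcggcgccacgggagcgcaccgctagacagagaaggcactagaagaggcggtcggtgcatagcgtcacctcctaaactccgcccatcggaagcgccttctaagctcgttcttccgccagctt
RPS25: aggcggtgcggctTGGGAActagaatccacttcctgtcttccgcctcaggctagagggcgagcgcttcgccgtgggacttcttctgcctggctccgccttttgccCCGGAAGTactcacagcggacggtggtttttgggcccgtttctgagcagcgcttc
RPLP2: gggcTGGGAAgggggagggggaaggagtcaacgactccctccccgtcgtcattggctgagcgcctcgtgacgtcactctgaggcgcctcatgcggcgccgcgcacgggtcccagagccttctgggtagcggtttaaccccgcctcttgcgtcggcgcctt
RPL3: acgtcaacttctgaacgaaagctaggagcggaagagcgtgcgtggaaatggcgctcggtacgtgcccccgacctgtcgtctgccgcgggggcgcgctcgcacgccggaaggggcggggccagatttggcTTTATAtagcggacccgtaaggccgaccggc
RPS19: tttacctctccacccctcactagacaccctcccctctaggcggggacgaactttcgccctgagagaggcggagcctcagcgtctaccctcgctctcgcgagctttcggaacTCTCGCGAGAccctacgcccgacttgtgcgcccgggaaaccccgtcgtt
RPS6: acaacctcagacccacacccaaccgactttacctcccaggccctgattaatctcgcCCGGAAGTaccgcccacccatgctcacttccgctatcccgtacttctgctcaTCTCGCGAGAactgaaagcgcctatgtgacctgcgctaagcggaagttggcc
RPL37A: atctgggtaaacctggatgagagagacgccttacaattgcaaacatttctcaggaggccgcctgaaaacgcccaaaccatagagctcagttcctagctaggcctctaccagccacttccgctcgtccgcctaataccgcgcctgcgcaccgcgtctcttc
RPS23: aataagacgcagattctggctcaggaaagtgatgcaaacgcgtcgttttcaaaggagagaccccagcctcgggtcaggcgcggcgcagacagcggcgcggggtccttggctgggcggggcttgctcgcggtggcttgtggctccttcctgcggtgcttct

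In RPL39 the motif begins 127 bases before the start, and in RPS25 it begins at −147, where position −1 is the last base before the start. The core was about as common in these promoters as elsewhere: TGGGAA, read on both strands, stood in 16 of 70 (22.9%) and in 22.8% of all promoters. The core was sought in the promoter only, while a gene-end peak could lie at either end of the gene. Motif and peak were thus not matched in place. All 16 genes with the core had a gene-end peak in the wild-type RBPJ list, though that of RPS3 lay at its 3′ end. So did 44 of the 54 without it, and the median summit was 63 reads with the core and 61.5 without. In the KO list 13 of 16 and 39 of 54 had a peak, with medians of 31 and 37 reads. The titled RBPJ list marked 12 of 16 and 26 of 54 (75% and 48.1%), with 43.5 and 39.5 reads, and the RBPJK175R list 9 and 28, with 15 and 20.5 reads. The other motifs were also read on both strands. CCGGAAGT stood in 10 of 70 promoters (14.3%) against 6.03% of all, and AAGATGGC, the motif of YY1, in 7 (10%) against 3.83%. TATAAA stood in 7 of 70, against 9.91% of all promoters. The palindrome marked in RPS19 was in 4 of 70 (5.71%) against 0.612%, in RPL17, RPL26, RPS19 and RPS6, and in the last 3 of these it began at −49, −49 and −52. None of the matches was tested as a binding site. The GC content of the 300 bases had a median of 59.7% in these genes and 62.7% in all.

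The widest gap in share between these promoters and all promoters was at the start itself. The next 8 windows run from 10 bases before the start to 15 bases from it, with the C at the start and the pyrimidines that follow it in capitals. RPLP0 and RPL37A are added as typical members, and RPS26 and RPL26L1 as members without a C at the annotated start.
RPL39: ccgccagcttCCCTCCTCTTCCTTT
RPS25: gcagcgcttcCTTTTTgtccgacat
RPS19: ccccgtcgttCCCTTTCCCCTggct
RPS6: gaagttggccCTCTTTTCCgtggcg
RPLP0: ggcgcgaggcCCTTCTCTCgccagg
RPL37A: gcgtctcttcCTTTCTgggctcgga
RPS26: acataacctcgattttcttccgcca
RPL26L1: tccaggggtcggcgaacgaaacgcg

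A C followed by at least 4 pyrimidines stood exactly at the annotated start in 44 of 70 genes (62.9%) and in 4.52% of all promoters. It was found in 25 of 38 large-subunit and 17 of 24 small-subunit genes, and in only 2 of the 8 paralogues with a promoter in the table. Within 10 bases of the start such a run was present in 58 of 70 genes, against 33.8% of all. RPL39 has the longest run shown, with 15 pyrimidines up to the edge of the window, and RPS25 and RPL37A have 6. The tract was present both in RPL37A, which had no RBPJ peak, and in RPL39, which had the highest.

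Ribosomal protein genes carried a gene-end peak in a larger share than all protein-coding genes in every list. In wild-type HEK293T cells 77 of 87 had an RBPJ peak, against 54.2% of all genes, and in KO cells 64 did, against 41.0%. The titled RBPJ list marked 51 (38.2% of all genes) and the RBPJK175R list 49 (29.3%). In the ATAC lists labelled Jurkat 80 genes were open in wild type (56.3% of all) and 65 in KO (42.7%). The large and small subunit were alike in the wild-type lists, with 42 of 46 and 29 of 31 genes for RBPJ and 44 and 30 for ATAC. In the titled RBPJ list the large subunit had 30 of 46 and the small subunit 17 of 31, and in the RBPJK175R list 30 and 16. Of the 10 paralogues 6, 5, 4 and 3 were marked in the RBPJ lists, in the same order, and 6 in each ATAC list.

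**Figure D1:**
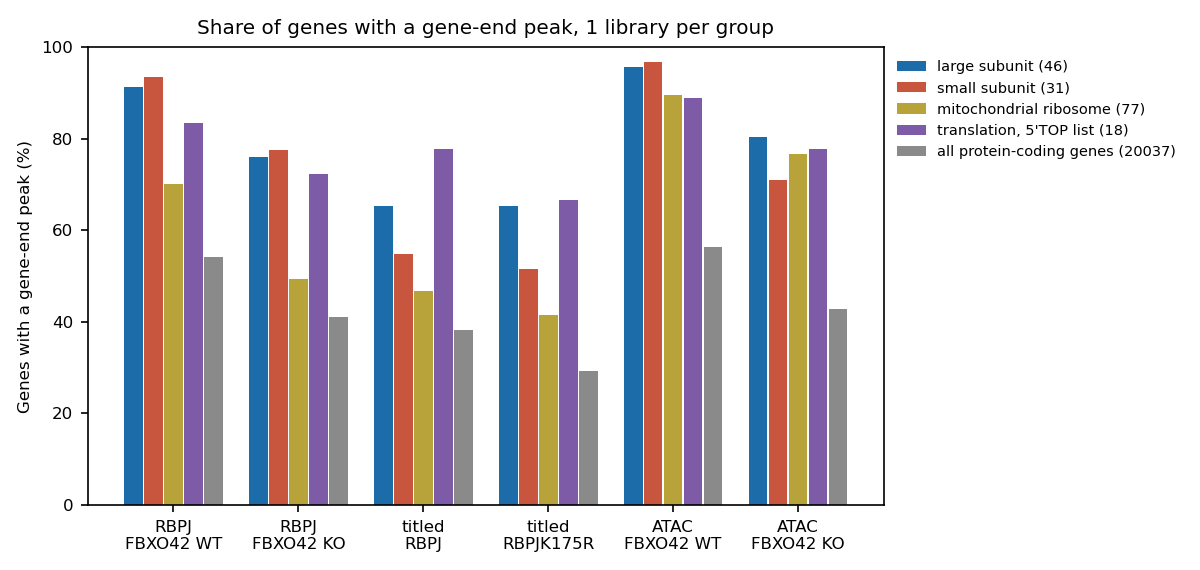
Share of genes with a gene-end peak (y axis, percent) in each of the 6 lists (x axis, 1 library each) for the large and small subunit, the mitochondrial ribosome, translation genes on a TOP list and all protein-coding genes. The large subunit stands at 91.3% and the small subunit at 93.5% in the wild-type RBPJ list, where all genes stand at 54.2%.

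In all 6 lists a peak was present for 35 of the 87 genes (40.2%), against 17.5% of all genes, and in all 4 RBPJ lists for 39 (44.8%), against 21.1%. The 35 comprise 21 large-subunit genes, 11 small-subunit genes and the paralogues RPL3L, RPL22L1 and RPL36AL. No peak in any list was found for 4 members, against 30.2% of all genes: RPS18, RPL10L, a testis-expressed relative of RPL10, and 2 Y-linked paralogues. RPS18 is a universal small-subunit gene at the head of that subunit, and it was the only core member without a peak. It lies in the major histocompatibility region, at chr6:33272075-33276511. Of the 50 genes within 1 Mb on each side of it, 14% had a peak in the wild-type RBPJ list and 18% in the wild-type ATAC list, both far under the shares over all genes, and whether reads of that region were kept was not tested. 3 other core members of the large subunit, RPL32, RPL34 and RPL37A, and RPS23 of the small subunit had ATAC peaks and no RBPJ peak in any list.

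**Figure D2:**
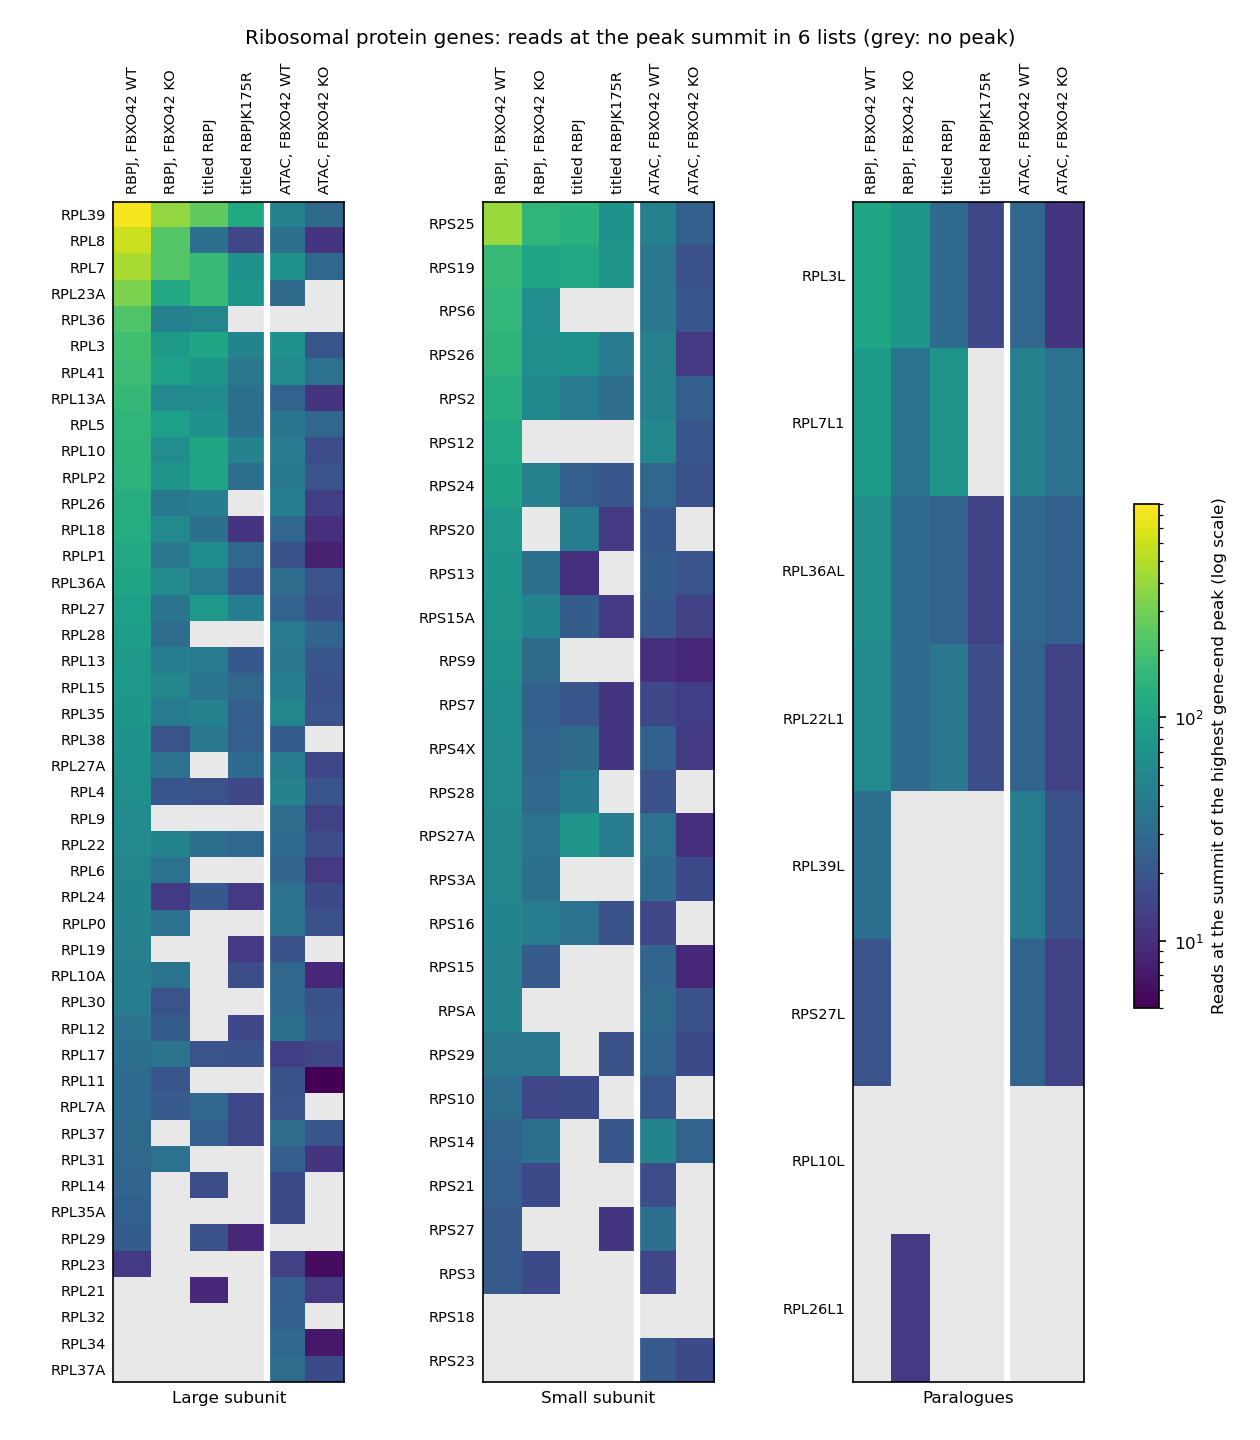
Reads at the summit of the highest gene-end peak (colour, log scale; grey, no peak) for ribosomal protein genes (rows, ordered by reads in the wild-type RBPJ list) in the 6 lists (columns); the 2 Y-linked paralogues, which had no peak, and some other genes are left out. RPL39 leads the large subunit at 830 reads and RPS25 the small subunit at 413, and grey cells grow in number from the wild-type RBPJ column to the 2 titled columns.

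RPL39, which encodes a short protein lining the exit tunnel, had the highest RBPJ summit of the family in all 4 RBPJ lists. Its summit held 830 reads in wild type, 385 in KO, 252 in the titled RBPJ list and 118 in the RBPJK175R list, and 49 and 30 reads in the ATAC lists. The gene lies at chrX:119786504-119791630 on the minus strand. Its wild-type peak ran from 119786640 to 119795088, over nearly the whole gene and past its start, at a fold of 184 over the local background by the authors' value. The summit stood 306 bases before the start in the wild-type, KO and wild-type ATAC lists and 305 before it in the RBPJK175R list, so it lay upstream of the TGGGAA match shown above. In the titled RBPJ and KO ATAC lists it stood 209 and 210 bases before the start.

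RPS25 (chr11:119015717-119018343, minus strand), a small-subunit protein needed for some internal ribosome entry sites, had 413, 148, 138 and 70 reads in the 4 RBPJ lists. It led its subunit in the first 3 of these. Its summits stood between 196 and 201 bases before the start in these lists and 216 (wild type) and 198 (KO) bases before it by ATAC. The window there is shared with TRAPPC4, so the peak cannot be given to either gene alone. RPS19 (chr19:41860255-41872925, plus strand), a gene mutated in Diamond-Blackfan anaemia, came next in wild type with 166 reads and had 106, 114 and 73 in the other RBPJ lists, the last of these above RPS25. It had no other protein-coding gene end in its peak. Its summits stood 306 to 315 bases before the start in the 4 RBPJ lists. At these 3 genes the position of the RBPJ summit recurred to within a few bases in most RBPJ lists.

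Several of the other high values belonged as much to a neighbour. RPL8, a protein close to the peptidyl transferase centre, had 592 reads in wild type and 226 in KO, but the wild-type summit lay 2665 bases from the nearest end of the gene and the peak also reached ZNF34. In the titled lists RPL8 had only 33 and 15 reads. RPL7 had 465, 225, 168 and 70 reads with RDH10 in the same peak. RPL23A, at the rim of the exit tunnel, had 323, 115, 166 and 78 reads with RAB34. RPL36 had 215 reads in wild type at a summit 3283 bases before the start, in a peak that also touched LONP1 and HSD11B1L. Over the wild-type RBPJ list 34 of 77 members (44.2%) shared their peak with another protein-coding gene, against 34.3% of all genes, and in 71 of 77 the summit itself lay inside the window.

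RPL3 (chr22:39312882-39319623, minus strand), which reaches to the peptidyl transferase centre, had no other protein-coding gene end in its peaks and 188, 81, 108 and 52 reads, the last of these past its 3′ end. RPL41, the smallest ribosomal protein, had 98 reads in KO, 78 in titled RBPJ and 39 in RBPJK175R, and its wild-type and KO peaks were shared with ZC3H10. The RPL41 summits did not mark the same site in these lists. In wild type and KO they stood at 1549 and 1556 bp from the start, past the end of the 1335 bp gene. In titled RBPJ and RBPJK175R they stood at −253 and −303 bp. RPL5, which with RPL11 binds MDM2, had 151, 93, 69 and 33 reads, in a peak shared with DIPK1A. RPL11 itself had 31 reads in wild type and 20 in KO and no peak in the titled lists. RPS6 (chr9:19375715-19380236, minus strand), the target of S6 kinase, had 155 and 64 reads in the wild-type and KO lists. It too had no peak in either titled list. RPLP0, the scaffold of the lateral stalk, followed the same pattern, with 50 and 36 reads, then none called.

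RPS26 and RPS2 also stood high in the small subunit. RPS26, at the exit of the message, had 147, 67, 68 and 43 reads. RPS2 had 127 reads in wild type in a peak shared with NDUFB10. In the titled lists RPS27A, a ubiquitin fusion gene, joined the leaders at 73 and 44 reads, above, in reads not scaled by depth, its 54 and 35 in the wild-type and KO lists. The RPS27A peaks in these lists were shared with CLHC1, with summits 573 to 652 bases past the start. RPL10, which completes the large subunit late in assembly, had 109 reads in the titled RBPJ list and 146 in wild type. The wild-type RPL10 peak was shared with DNASE1L1.

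The median summit of the called members was 65 reads in wild type, 37 in KO, 42 in titled RBPJ and 21 in RBPJK175R, against 41, 27, 31 and 17 over all called genes. In the ATAC lists it was 29 and 16 against 23 and 13. The range inside the family was wide for RBPJ, from 12 to 830 reads in wild type, and narrow for ATAC, from 10 to 72. RPL7 had the highest wild-type ATAC summit at 72 reads, followed by RPL3 at 69 (in its 3′-end peak), and RPS12 led the small subunit at 55. The order of the members was similar between RBPJ lists, with a Spearman rho of 0.84 between wild type and KO (63 members) and 0.90 between the titled lists (42 members). Between RBPJ and ATAC in wild type it was 0.54 (75 members). These describe members that share libraries and peak widths and carry no test. Over all genes the same 3 values were 0.87, 0.86 and 0.60.

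The paralogues split into a marked and an unmarked set. RPL3L, the striated-muscle form of RPL3, had peaks in all 6 lists, with 109, 76, 31 and 15 reads for RBPJ, but MSRB1 shared each of them. RPL36AL, paired head to head with MGAT2, had 65, 31, 26 and 14 reads. RPL22L1, with no neighbour in its peak, had 58, 31, 39 and 17. RPL7L1 had 84, 37 and 73 reads and none called in the RBPJK175R list, and its titled RBPJ summit lay at the far end of the gene, in a peak shared with PEX39. RPL39L, the testis form of RPL39, had 33 reads in wild type and no other RBPJ peak, yet had ATAC peaks with 44 and 18 reads. RPS27L, a relative of RPS27, showed the same arrangement at 19 reads for RBPJ and 26 and 14 for ATAC. By the gene-end rule RPL26L1 had a single peak, of 12 reads at its 3′ end in the KO RBPJ list. Its annotated start, however, lies 4635 bases inside the annotated gene, outside the windows of the rule. A peak stood within 1 kb of that start in all 6 lists, with 59, 35, 27 and 24 reads for RBPJ and 32 and 16 for ATAC. These peaks enter none of the counts of gene-end peaks. The large-subunit gene RPL6 also has its annotated start inside the annotated gene, by 9550 bases. Peaks stood within 1 kb of that start in the titled RBPJ and RBPJK175R lists, with 24 and 9 reads. The gene-end rule gave RPL6 no peak in the titled lists, so their counts do not include it.

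Loss of FBXO42 was set against wild type in HEK293T first. Of the 77 members with an RBPJ peak in wild type, 63 also had one in KO, or 81.8% against 67.9% of all genes. A peak was called only in wild type for 14 members, against 17.4% of all genes tested, and only in KO for 1, against 4.27%. That 1 is RPL26L1, which had start peaks in both lists, so the call rests on the gene-end rule. The 14 comprise 7 large-subunit genes, 5 small-subunit genes and 2 paralogues. By reads they were led by RPS12 with 111, RPS20 with 79, RPL9 with 61, RPSA, the laminin receptor precursor, with 51 and RPL19 with 48. At equal level after depth scaling the KO list would have held 102 reads at RPS12 and 72.7 at RPS20. RPL39L with 33, RPL37 with 30, RPL14 with 27, RPL35A with 25, RPL29 with 23, RPS27 with 22, RPS27L with 19 and RPL23 with 12 reads were also in the set. By the authors' fold RPL39L stood highest among them at 10.7 and RPS12 lowest at 3.16. RPS12 therefore had many reads over a high local background, and its absence from the KO list is not a count of 0 there.

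The share of members found again in KO was larger where wild type had more reads. It was 57.7% of the 26 members with up to 51 reads, 92.0% of the 25 with 52 to 84, and 96.2% of the 26 with 90 or more. All genes in the same ranges gave 50.1%, 89.8% and 98.2%. Within a range of reads the family therefore lay close to all genes, and its higher share overall went with its higher reads.

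Where wild-type and KO peaks overlapped, in 60 members, the depth-scaled reads were lower in KO for 56 and higher for 4, while 91.2% of all genes with such pairs were lower. Both peaks of the pair reached within 1 kb of the annotated start for 41 of the 60, 39 of them lower in KO with a median ratio of 0.534. The summit itself could lie farther away, as at RPL36 and RPL41. The median ratio of KO to wild type was 0.536, against 0.582 over all genes, a difference of −0.12 on the log2 scale. The 95% interval lay below 1 for 42 of 60 (70%), against 61.6% of all genes, and above 1 for 0, against 0.496%. The large subunit had a median of 0.557, the small subunit 0.525 and the 4 paralogues 0.548. So the lower values at these genes were of about the size seen over all genes in the same libraries, and 35 of 60 members stood below the all-gene median.

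The 3 lowest ratios, those of RPL36, RPL13A and RPL38, did not compare the same site. RPL36 had 215 reads in wild type and 26 in the overlapping KO peak, a ratio of 0.131 (0.0839 to 0.198), with summits 3279 bases apart. For RPL13A, in its pair of peaks, 160 and 29 reads gave 0.197 with summits 1688 bases apart, and for RPL38 71 and 19 reads gave 0.291 at 2553 bases. Among members whose summits lay within 200 bases, RPL4 was next, with 66 and 20 reads and a ratio of 0.329 (0.189 to 0.550). These are its 3′-end peaks, shared with SNAPC5, and the peaks at its start held 36 and 16 reads. RPL26 followed with 128 and 41 reads and 0.348 (0.239 to 0.498). RPS25 stood at 0.389 (0.320 to 0.471) with summits 2 bases apart, RPL39 at 0.504 (0.445 to 0.569) with the same summit, and RPS6 at 0.448 (0.330 to 0.604). RPS25, RPL39 and RPS6 were thus lower in KO by a margin wider than their counting error.

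At the other end RPL31 had 28 and 35 reads, a ratio of 1.36 (0.802 to 2.32), RPL17 had 33 and 37 reads and 1.22 (0.741 to 2.01) in 3′-end peaks shared with C18orf32, and RPS29 had 40 in each and 1.09 (0.683 to 1.73). All 3 intervals included 1. RPL5 gave 0.669 (0.511 to 0.872), RPS19 0.694 (0.538 to 0.890), RPL11 0.701 (0.379 to 1.27) and RPLP0 0.782 (0.495 to 1.22). Among the paralogues RPL7L1 gave 0.478 (0.316 to 0.712), RPL36AL 0.518 (0.326 to 0.806), RPL22L1 0.581 (0.363 to 0.913) and RPL3L 0.757 (0.557 to 1.02). RPL24, RPS14 and RPS3 had peaks in both lists that did not overlap. RPS14, a platform protein of the small subunit, had its wild-type peak of 26 reads past the 3′ end and its KO peak of 33 reads 218 bases before the start.

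**Figure D3:**
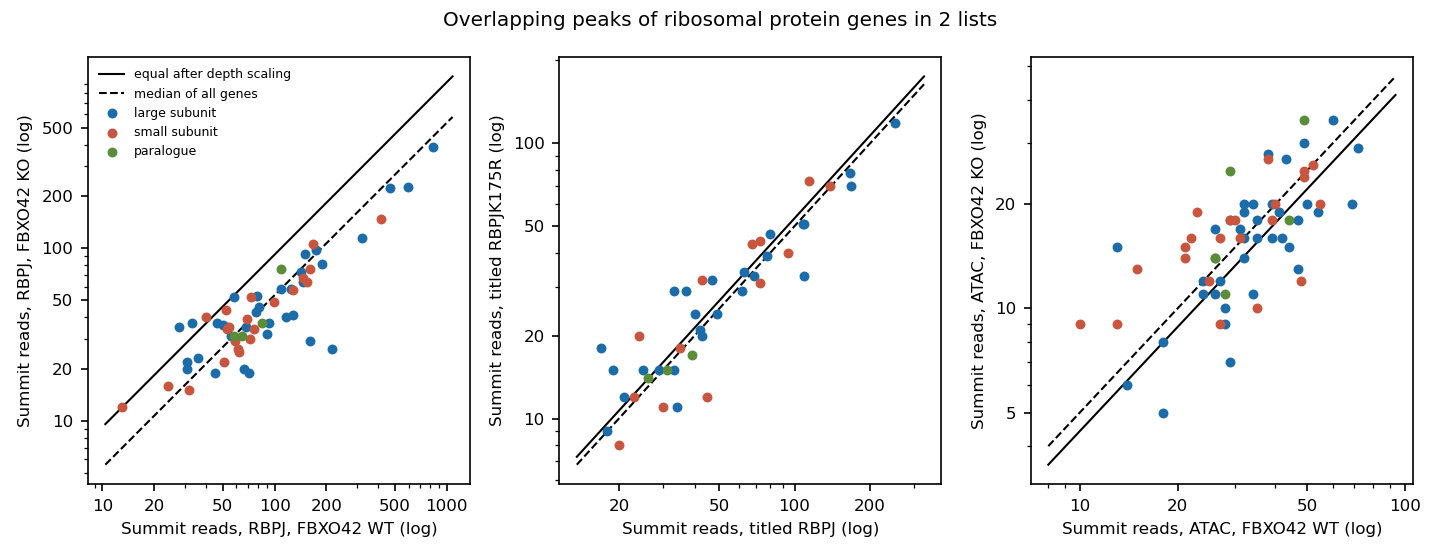
Reads at the summit (both axes, log scale) of overlapping peaks of ribosomal protein genes in the first list (x) and second list (y) of each comparison; each point is 1 gene, the solid line marks equal values after depth scaling and the dashed line the median of all genes. In the left panel 56 of 60 genes lie below the solid line and they scatter about the dashed line, as they do in the other panels.

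The second comparison set the titled RBPJ library against the titled RBPJK175R library. Of the 51 members with a peak in the first, 42 (82.4%) also had one in the second, against 64.5% of all genes. RBPJ alone marked 9, against 13.6% of all genes, and RBPJK175R alone marked 7, against 4.63%. The 9 included RPL7L1 with 73 reads, RPL36 with 53, RPL26 with 46, RPS28 with 41, RPL14 with 17, RPS10 with 16, RPS13 with 10 and RPL21 with 9. The 7 were RPL27A with 31 reads, RPS14 with 20, RPS29 with 18, RPL10A with 17, RPL12 with 15, RPL19 with 12 and RPS27 with 11. The RPL27A peak reached the window at the 3′ end of the gene, with its summit 1229 bases before that end. The titled RBPJ list, the deeper one, would have held 58.1 reads there at an equal level. Among members with up to 31 reads in the first list 70.6% were found again, against 46.3% of all genes in that range, and with 63 reads or more 94.1% against 93.3%.

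All 42 shared members had overlapping peaks. The median ratio of RBPJK175R to RBPJ was 0.936 in the family and 0.936 over all genes, a value that whole-number reads in a ratio of 1 to 2 give. The scaled reads were lower in RBPJK175R for 26 and higher for 16, and 58.6% of all genes were lower. The interval lay below 1 for 2 of 42 members, RPS20 and RPLP2, against 12.1% of all genes, and above 1 for 0, against 3.30%. RPS20 had 45 and 12 reads, a ratio of 0.499 (0.240 to 0.960), with summits 252 bases apart. RPLP2, an acidic protein of the lateral stalk, had 109 and 33 reads, a ratio of 0.567 (0.372 to 0.844), with PIDD1 sharing the peak in both lists. RPL18 was the next lowest at 34 and 11 reads and 0.606 (0.277 to 1.22), in 3′-end peaks shared with FAM83E.

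The highest ratios were those of RPL17 at 1.98 (0.964 to 4.09; 17 and 18 reads), RPL22, a gene needed for early T cell development, at 1.65 (0.964 to 2.80) and RPS24 at 1.56 (0.818 to 2.95), and their intervals included 1. The RPL17 summits stood at −798 and −169 bp from the start in the 2 lists, so that ratio did not compare the same site. RPL39 gave 0.877 (0.699 to 1.10), RPS25 0.950 (0.702 to 1.28), RPS19 1.20 (0.881 to 1.62), RPL7 0.780 (0.582 to 1.04) and RPL5 0.896 (0.573 to 1.37). For these 5 well-covered genes the intervals all included 1, which does not show that the libraries were alike there. The paralogues RPL22L1, RPL3L and RPL36AL gave 0.816, 0.906 and 1.01.

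In the libraries labelled Jurkat, ATAC peaks were called at 80 members in wild type and at 65 of these (81.3%) in KO, against 73.2% of all genes. Open only in wild type were 15 members, against 15.1% of all genes, and only in KO 0, against 1.45%. The small subunit supplied 8 of the 15, from 30 open genes, and the large subunit 7 from 44. They included RPS27 with 33 reads, RPL23A with 30, RPL32 with 25, RPL38 with 23, RPS20 with 21, RPS10 with 20, RPL7A with 19, RPL19 and RPS28 with 18, RPS21 with 17, RPL14 and RPL35A with 16, and RPS3 and RPS16 with 15. At the depth of the KO library equal levels would give 6.63 to 14.6 reads at these genes, in a list where the lowest summit of any called member held 5. In the lower range of reads, up to 26, 60% of members and 58.7% of all genes were found again, and in the upper range 100% and 97.8%.

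Over the 65 overlapping pairs the median ratio of KO to wild type was 1.13, the same as over all genes, again the value of a ratio of 1 to 2 in whole reads. The scaled reads were lower in KO for 23 members and higher for 42, and 33.2% of all genes were lower. The small subunit had a median of 1.25, with 18 of 22 genes higher, and the large subunit 1.01, with 20 of 37 higher. The interval lay above 1 for 3 members, RPL17, RPL36AL and RPL7L1, against 5.35% of all genes, and below 1 for 0, against 0.407%. RPL17 had 13 and 15 reads, a ratio of 2.61 (1.16 to 5.96), in 3′-end peaks shared with C18orf32. RPL36AL had 29 and 25 reads, a ratio of 1.95 (1.10 to 3.45), in peaks shared with MGAT2. RPL7L1 had 49 and 35 reads, a ratio of 1.62 (1.02 to 2.55), in 3′-end peaks shared with PEX39. None of the 3 values can thus be given to the member's own start alone.

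RPS9 and RPS7 followed RPL17 in order of ratio at 2.04 (0.732 to 5.58) and 1.96 (0.859 to 4.42). The lowest ratios were those of RPL34 at 0.546 (0.202 to 1.27), RPS26 at 0.566 (0.273 to 1.08) and RPL26 at 0.626 (0.311 to 1.18). RPL11 had 18 and 5 reads and 0.629 (0.182 to 1.76), RPL5 38 and 28 reads and 1.67 (0.985 to 2.79), RPSA 30 and 18 reads and 1.36 (0.713 to 2.52). RPS6, RPS14 and RPS19 stood at 1.13, 1.13 and 1.04, and RPLP0 at 1.16. The few reads per summit leave wide intervals, so a moderate change was not detectable at this depth. Only genes called in both lists enter the ratio, and members not called in the shallower KO list are not in it.

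RBPJ peaks in HEK293T and open chromatin in the libraries labelled Jurkat fell on nearly the same members, although the labels give different cell lines, so the values stand side by side only. Of the 77 members with a wild-type RBPJ peak 75 (97.4%) had a wild-type ATAC peak, against 85.3% of all genes. The 2 exceptions were RPL29 and RPL36. In the other direction 75 of 80 open members (93.8%) had an RBPJ peak, against 82.0% of all genes, and the 5 without one were RPL21, RPL32, RPL34, RPL37A and RPS23, which had 22 to 32 ATAC reads. Where the peaks overlapped, in 73 members, the summits lay a median of 88 bases apart, against 122 over all genes, and within 250 bases in 61 (83.6%), against 72.3%. In the 2 KO lists 53 of 64 members (82.8%) with an RBPJ peak were open, against 67.3% of all genes.

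Relative to the annotated start, RBPJ summits of the family lay just upstream. A peak counted as at the start when it overlapped 1 kb on each side of it, so a summit could lie farther away. In wild type the median position over 59 members with a peak at the start was −137 bp (interquartile range −222 to 27), against −68 bp over all genes. The summit was within 250 bp of the start in 44 of 59 (74.6%), against 54.4% of all genes. In the KO, titled RBPJ and RBPJK175R lists the medians were −162, −208.5 and −181.5 bp, against −75, −121 and −168 bp over all genes. The shares within 250 bp were 55.1%, 52.8% and 61.8% there, against 49.0%, 51.4% and 44.0% of all genes. ATAC summits had a median of −142.5 bp in both lists, against −62 and −74 bp, and in wild type 45 of 62 (72.6%) lay within 250 bp of the start, against 57.6% of all genes. In the KO ATAC list 66.7% did, against 60.2%. So the 2 wild-type lists placed their summits over much the same stretch of these promoters.

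**Figure D4:**
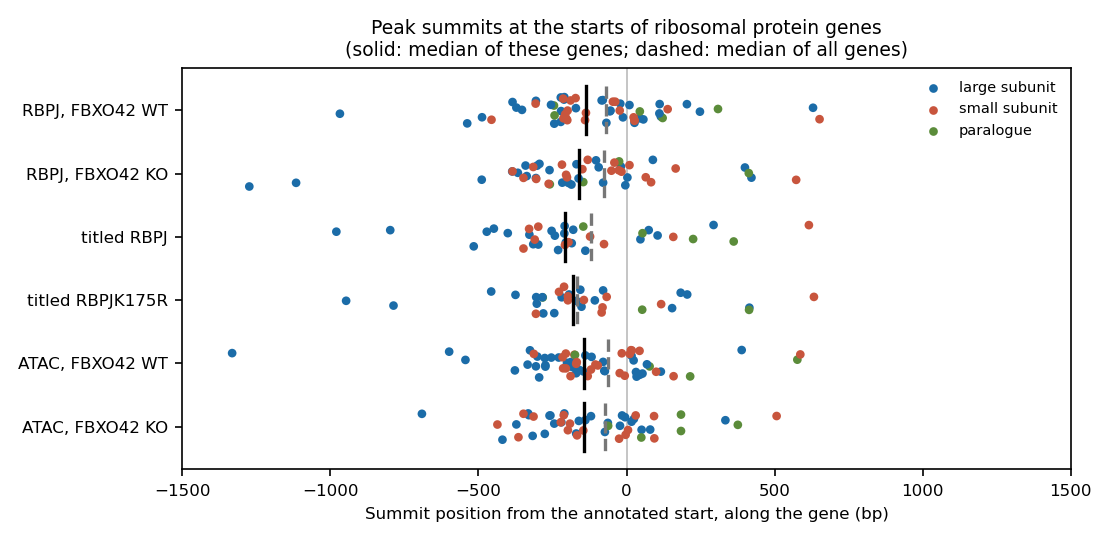
Position of the highest summit at the start of each ribosomal protein gene (x axis, bp along the gene from the annotated start at 0) in the 6 lists (rows); each point is 1 gene, solid ticks mark the family median and dashed ticks the median of all genes. The family medians lie between −208.5 and −137 bp, upstream of the all-gene medians in every list; 3 summits beyond 1500 bp are not drawn.

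These genes also carried peaks at their 3′ ends. Among the 64 members whose start is annotated and lies more than 2 kb from the 3′ end, 35 (54.7%) had in the wild-type RBPJ list a 3′-end peak that reached neither the 5′ end nor the start, against 12.4% of all such genes. Member genes are short, with a median of 5057 bp against 24115 bp over all genes, so the share was also taken over genes of 2 to 10 kb. There 29 of 51 members (56.9%) had a separate 3′-end peak, against 20.5% of all genes in that class. In the KO list it was 33.3% against 20.3%, in titled RBPJ 23.5% against 10.3% and in RBPJK175R 27.5% against 8.32%. The ATAC lists gave 27.5% against 9.01% in wild type and 17.6% against 5.44% in KO. A neighbouring gene end shared the peak in 14 of the 35 wild-type cases, and without those 17 of 51 members (33.3%) and 9.98% of all genes in the class had one.

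The 3′-end summits held a median of 31 reads and lay beyond the annotated end in 28 of 35. RPL3 had the highest, with 180 reads in a peak 19107 bp wide whose summit stood 1626 bases past the end, almost as high as the 188 reads at its start. In KO the 3′-end peak had 61 reads, in the titled lists 84 and 52 and in the ATAC lists 69 and 20, and the summits stood 1030 to 1676 bases past the end. RPL13 also had a 3′-end peak in all 6 lists, at 81, 46, 42 and 21 reads for RBPJ and 39 and 20 for ATAC. Its summits, however, lay inside the gene, 1164 to 1924 bases before the 3′ end. RPL27A had a 3′-end peak of 68 reads in wild type at a fold of 18.1, with the summit 922 bases before the 3′ end. RPL36A had 104 reads shared with GLA and RPL4 66 with SNAPC5. RPL39, RPS4X, RPS19 and RPS12 had weaker 3′-end peaks of 46, 38, 31 and 28 reads with no other protein-coding gene end in them. Gene ends of non-coding genes were not looked at.

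**Figure D5:**
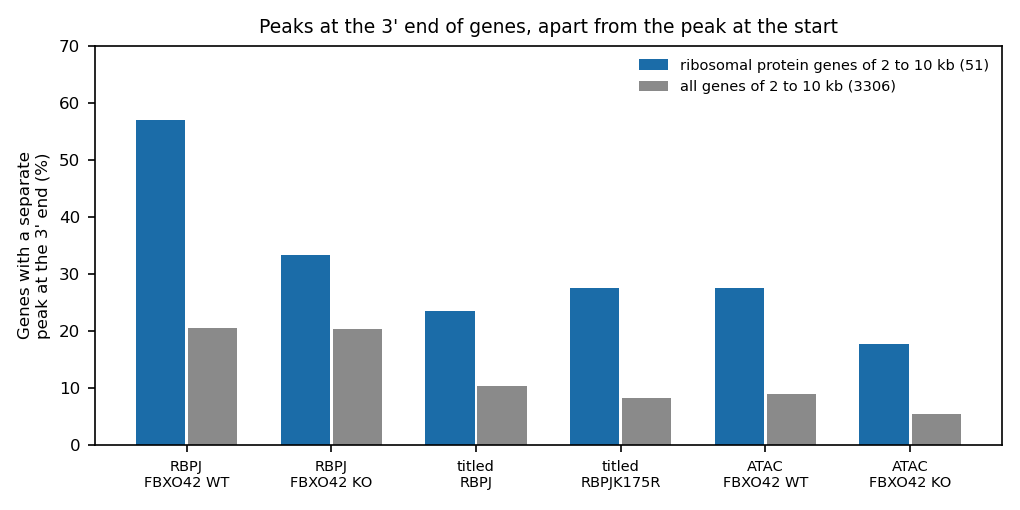
Share of genes of 2 to 10 kb (y axis, percent) with a peak at the 3′ end that is separate from the peak at the start, in each list (x axis), for 51 ribosomal protein genes and 3306 genes of all kinds. The ribosomal protein genes stand above the other genes in all 6 lists, most in the wild-type RBPJ list with 56.9% against 20.5%.

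The pattern was compared with 5 related gene lists. Ribosome assembly genes were marked about as often as ribosomal protein genes, in 28 of 32 (87.5%) in the wild-type RBPJ list and 24 in KO, and translation genes with TOP messages in 15 of 18 (83.3%) and 13. Mitochondrial ribosomal protein genes had wild-type ATAC peaks about as often, in 69 of 77 (89.6%), and RBPJ peaks in 54 of 77 (70.1%) in wild type and 38 (49.4%) in KO. RNA polymerase I genes and proteasome subunit genes had 10 of 15 and 24 of 35 in wild type. In the titled RBPJ list 77.8% of TOP translation genes, 68.8% of assembly genes and 60% each of polymerase I and proteasome genes were marked. These shares stood above the 58.6% of the cytosolic ribosome there, while mitochondrial ribosomal protein genes had 46.8%. The 58.6% includes the paralogues, of which 40% were marked. The large subunit stood at 65.2%, above the polymerase I and proteasome shares, and the small subunit at 54.8%, below them. In the RBPJK175R list only the TOP translation genes, at 66.7%, stood above the 56.3% of the cytosolic ribosome. The median KO to wild-type ratio was 0.499 for assembly genes, 0.549 for TOP translation genes, 0.596 for mitochondrial ribosomal protein genes and 0.705 for proteasome genes, beside 0.536 for the cytosolic ribosome. These lists were described by counts only and no difference between them was tested.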

How the data were processed

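Peak lists of 6 libraries, 4 of RBPJ CUT&Tag and 2 of ATAC-seq, were used. Trim Galore, Bowtie2, MACS2, deepTools and the build hg38 are named in the submitters' processing notes, and the sources used here give no versions, settings or control library for any list. Each list is of 1 library. The deposited score column equals 10 times the −log10 q of the peak, the deposited fold is the ratio of summit pileup to local background, and the deposited −log10 columns are of the p-value and q-value. The other deposited columns used hold the start, end and summit position in bp.

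Reads at the summit were solved from fold and −log10 p, with the pseudocount of 1 that MACS2 adds, and came out whole within 0.1% for 100% of peaks in each of the 6 lists. The pileups of the titled RBPJ list carried a factor of 0.81202, which was divided out. Depth was taken as the lowest local background of a list, which assumes that this background scales with the number of reads. Ratios of reads at the highest pair of overlapping peaks were divided by the ratio of depths, with exact conditional binomial 95% intervals. Peaks were matched to 20037 protein-coding genes within 1 kb of either annotated end. The recovery and the ratios were run on simulated peaks, made with the same formula and a known depth factor. Such a run checks the code only. It could not test the formula taken for MACS2 or the depth taken from the lowest background. Python 3.11.15, numpy 2.4.6, pandas 2.3.3, scipy 1.17.1 and matplotlib 3.10.9 were used.

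The genes, comparison lists and marker lists were chosen with earlier results of these data known. Genes were named by rule: the 5 large- and 5 small-subunit genes with the most summit reads in each list, up to 10 genes found in 1 list of a comparison only (ranked by fold; further ones are named to complete a count), the 3 highest and 3 lowest ratios, every paralogue, every gene without a peak, and RPL5, RPL11, RPS6, RPS19, RPS14, RPSA and RPLP0. Other genes named were chosen after their values were seen, among them those of the 3′-end account. Alternatives covered the window, thresholds on −log10 q, genes sharing a peak, thinning and centring. A minimum of 6 summit reads and depth divided by the shortest peak length were added after seeing the data. Values of some genes are not reported here by name.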

Additional observations from a re-analysis of the deposited data

How the results depend on the processing

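Of 128 alternative values 110 stayed within the limits set for a change, 18 moved, and none changed sign. Without genes that share their peak with another gene, the members with a peak numbered 43, 37, 32 and 28 in the RBPJ lists (wild type, KO, titled RBPJ, RBPJK175R) and 51 and 41 in the ATAC lists. With a −log10 q of at least 10 they numbered 42 in RBPJ KO, 24 in RBPJK175R and 19 in ATAC KO. The alternative counts and shares were not taken over all genes, so whether the family stays above all genes under them was not tested. The share found again from wild type in KO was 71.1% for RBPJ at a −log10 q of at least 5 and 61.5% at 10. At 10 it was 64.7% for the titled pair and 33.9% for ATAC, and 66.2% of wild-type RBPJ members then had an ATAC peak, while a window of 2500 bp gave 100%. Centred on the median of all genes, the median log2 ratio was −0.12 for RBPJ KO and 0 for ATAC KO, and at a −log10 q of at least 10 it was 0.40 for ATAC KO. Depth divided by the shortest peak length, an alternative chosen after seeing the data, gave medians of −0.76, −0.14 and 0.24 for the 3 comparisons. The cause of these shifts was not tested. No paired analysis was possible because each group has 1 library and the labels give no replicate numbers, and no replicate could be left out for the same reason. The low reads at ATAC summits limit what could be seen there.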
